A study of Mus musculus with 7 samples.

Results

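The 7 genes described here, of 31053 in the count tables, encode regulators of the mouse oocyte. Figla, Nobox, Sohlh1, Sohlh2 and Lhx8 encode DNA-binding transcription factors, Taf4b encodes a subunit of the general transcription factor TFIID found in germ cells and granulosa cells, and Ybx2 encodes the Y-box protein also called MSY2, which binds mRNA in germ cells. They were taken by name from the gene column of the tables, and their UMIs (unique molecular identifiers, 1 per captured transcript) were counted in germ cells. A germ cell was a cell with at least 200 genes and at least 3 UMIs of Dazl and Ddx4 together, both of which encode RNA-binding proteins of the germline.

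Cells came from untreated wild-type C57BL/6J mice, with 1 library of pooled gonads at each age: the gonad at E11.5, the ovary at E12.5, at 3 later embryonic ages (E14.5, E16.5 and E18.5) and after birth at P1 and P5 (E and P give days of gestation and days after birth). The time in trypsin rose with age, from 20 min for both of the earliest libraries to 40 min for E14.5 and E16.5, 60 min for E18.5 and 80 min for both of the last. With 1 library per age there was no replicate and no test, and age, library and dissociation time cannot be told apart. Intervals given in brackets are exact 95% intervals, which cover counting error only.

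Of 50823 cells kept, 4760 were germ cells, and 4430 of these came from the 5 libraries from E14.5 to P5. In order of age the libraries held 9, 321, 2669, 1016, 439, 244 and 62 germ cells. Germ cells at P5 made up 1.008% of the library and those at E14.5 24.1%. Their median depth from E14.5 to P5 was 12775, 25098, 12107, 20902 and 60954 UMIs, while cells with no Dazl or Ddx4 UMI (called other cells below) had medians of 5704 to 10545. The germ cells carried germline transcripts that had not been used to choose them. Mael, a piRNA pathway gene, was at 172 to 856 UMIs per 1000000 total UMIs (written as CPM) in germ cells from E14.5 to P5 and at 1.16 to 11.1 CPM in other cells, and Sycp3, a synaptonemal complex gene, was at 405 to 2037 CPM against 3.96 to 16.05 CPM. The summed level of 22 somatic markers was 87.5 to 383 CPM in germ cells and 2351 to 4301 CPM in other cells.

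The E16.5 library stood apart in 3 ways. It shared 0 to 3 cell barcodes with each other library, where the other pairs shared 20 to 131, its germ cells had the highest median share of mitochondrial UMIs (7.40%, against 2.69 to 4.65% at the other ages from E14.5) and the highest somatic marker level (383 CPM), and the median gene rose 1.51-fold between the germ cells of E14.5 and E16.5. The part of these in the results was not tested. The onset of each gene, the ratios from E14.5 of the genes that rose and the TFIID genes are therefore given with and without it. In all, 907 of 49901 barcodes occurred in more than 1 library, and 5 of these were germ cells in both.

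In the mouse, primordial germ cells reach the gonad, divide in cysts, enter meiosis and arrest late in meiotic prophase, and each surviving oocyte is then enclosed by granulosa cells in a primordial follicle. FIGLA, a basic helix-loop-helix (bHLH) protein, is required for primordial follicles to form and for the zona pellucida genes to be transcribed. NOBOX and LHX8 are homeodomain proteins and SOHLH1 and SOHLH2 are bHLH proteins, and loss of any of these 4 factors depletes oocytes in early follicles. YBX2 stabilises stored mRNA in the oocyte, where transcripts are kept for use after transcription stops.

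Members of the bHLH family bind the E-box, CANNTG. The 250 bases before the RefSeq start of Figla, Nobox and Sohlh1 are shown because these 3 genes are oocyte factors with low levels at E14.5 and high levels at P1, and because the windows hold none of the genes' own annotated exons. Capitals mark every match to CANNTG, read 5′ to 3′ on the strand of the gene in GRCm38.p6.
Figla, chr6:86016941-86017190, plus strand: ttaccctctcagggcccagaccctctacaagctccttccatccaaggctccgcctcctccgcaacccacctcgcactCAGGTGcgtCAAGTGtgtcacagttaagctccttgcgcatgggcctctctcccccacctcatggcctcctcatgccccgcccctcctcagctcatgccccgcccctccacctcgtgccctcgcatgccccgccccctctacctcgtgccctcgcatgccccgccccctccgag
Nobox, chr6:43309555-43309804, minus strand: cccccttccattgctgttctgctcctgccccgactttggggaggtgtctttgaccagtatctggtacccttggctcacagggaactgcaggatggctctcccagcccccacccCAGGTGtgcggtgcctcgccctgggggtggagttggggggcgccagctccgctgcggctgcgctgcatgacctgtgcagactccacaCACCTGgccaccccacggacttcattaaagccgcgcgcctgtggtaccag
Sohlh1, chr2:25847249-25847498, minus strand: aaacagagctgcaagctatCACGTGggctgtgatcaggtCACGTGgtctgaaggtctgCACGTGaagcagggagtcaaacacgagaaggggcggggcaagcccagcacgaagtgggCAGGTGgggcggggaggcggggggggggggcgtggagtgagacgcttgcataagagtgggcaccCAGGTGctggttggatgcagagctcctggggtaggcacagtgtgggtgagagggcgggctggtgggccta

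The Figla window lies within the bounds of the GENCODE gene but in none of its exons, and the Nobox and Sohlh1 windows lie immediately upstream of the gene. Figla held 2 E-boxes, at -173 and -164 from the start, Nobox 2, at -137 and -50, and Sohlh1 5, at -231, -211, -192, -134 and -70. The windows of Lhx8, Sohlh2 and Ybx2, not shown as they overlap annotated exons of these genes, held fewer. Lhx8 held 0, Sohlh2 1, and the Ybx2 windows 1 and 0. Of 27025 promoters of the same length in the RefSeq table, 66.0% held at least 1 CANNTG on either strand, 31.7% at least 2 and 1.18% at least 5. None of the 3 windows shown held TAATTA or its variant TAATTG, letters bound by NOBOX, or the letters TGATTG, bound by LHX8. Of all promoters, 4.90%, 7.34% and 13.1% held these in turn. A match is a description of the letters and not a bound site.

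Figla (ENSMUSG00000030001, chr6:86016171-86020996) was the most abundant of the 7 in germ cells from E18.5 on. It had no UMI in the 9 germ cells of E11.5, where 3 UMIs would have given 13.35 CPM, and was at 1.89 CPM at E12.5 (1.03 to 3.17). Its level was 38.6 CPM at E14.5 (36.6 to 40.7), 135 CPM at E16.5 (130.3 to 139), 749 CPM at E18.5 (726 to 772), 1665 CPM at P1 (1632 to 1697) and 1115 CPM at P5 (1080.1 to 1151). Figla thus rose at each age to P1 and was lower at P5, with no overlap between the intervals of any 2 of these ages. The ratio of P1 to E14.5 was 43.1 (40.8 to 45.6) and that of P5 to P1 0.670 (0.645 to 0.695). In other cells the level was 0.571 CPM at E14.5 and reached 10.0 CPM at P1.

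Sohlh1 (ENSMUSG00000059625, chr2:25842995-25847248) was nearly absent from germ cells through E14.5. Its germ cell level was 0.539 CPM at E12.5 (0.147 to 1.38), 1.675 CPM at E14.5 (1.28 to 2.15), 12.9 CPM at E16.5 (11.53 to 14.4), 258 CPM at E18.5 (245 to 272), 672 CPM at P1 (651 to 693) and 669.6 CPM at P5 (643 to 697.5). The 20.0-fold rise from E16.5 to E18.5 (17.8 to 22.7) was the largest step of the 7 genes between these ages. From P1 to P5 the ratio was 0.997 (0.947 to 1.05), and divided by the ratio of the median gene it was 1.02, so no direction is given for this step.

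Lhx8 (ENSMUSG00000096225, chr3:154306294-154330659) moved over the same ages as Sohlh1. It was at 0.135 CPM at E12.5 (1 UMI), 1.84 CPM at E14.5 (1.43 to 2.34), 14.04 CPM at E16.5 (12.6 to 15.6), 169 CPM at E18.5 (159 to 181), 303 CPM at P1 (289 to 317) and 238 CPM at P5 (222 to 255). Its level at P1 was 165-fold that at E14.5 (129 to 213), and the P5 level was 0.785 of that at P1 (0.722 to 0.853). Lhx8 was the only gene of the 5 that rose from E14.5 to P1 to pass 50% of its highest level at E18.5, since Figla, Nobox, Sohlh1 and Ybx2 passed it at P1. With every germ cell weighted alike, Lhx8 was at 150.1 CPM at E18.5 and 314.7 CPM at P1, and it too passed 50% at P1.

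Nobox (ENSMUSG00000029736, chr6:43303674-43309554) was the last of the 7 to pass 10 CPM and was still higher at P5 than at P1. It had 1 UMI in the germ cells of E12.5 and 6 in the 2669 germ cells of E14.5 (0.165 CPM, 0.0605 to 0.358), a level whose interval overlapped that of other cells (0.0685 CPM, 0.0141 to 0.200). It reached 6.29 CPM at E16.5 (5.35 to 7.34), 83.7 CPM at E18.5 (76.2 to 91.7), 173 CPM at P1 (162 to 183) and 308 CPM at P5 (289.8 to 327). The ratio of P5 to P1 was 1.785 (1.64 to 1.95), and Nobox was the 1 gene of the 7 whose P5 interval lay above that of P1. With every germ cell weighted alike, this ratio was 1.53 for Nobox and 1.16 for Ybx2.

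Ybx2 (ENSMUSG00000018554, chr11:69935796-69941605) rose more evenly and was found before any of these 4. Its level was 16.2 CPM at E12.5 (13.4 to 19.3), 33.4 CPM at E14.5 (31.5 to 35.3), 66.4 CPM at E16.5 (63.2 to 69.6), 131 CPM at E18.5 (122 to 141), 313 CPM at P1 (299 to 327) and 307 CPM at P5 (288 to 326). Each step to P1 was between 1.98-fold and 2.38-fold, and P1 and P5 had overlapping intervals.

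Sohlh2 (ENSMUSG00000027794, chr3:55182028-55209957), the bHLH partner of SOHLH1, took a different course from Sohlh1. It was present in the E11.5 germ cells (9 UMIs in 9 cells, 40.1 CPM, 18.3 to 76.05), was at 39.5 CPM at E12.5 (35.1 to 44.3), was highest at E14.5 with 67.5 CPM (64.9 to 70.3), and then lay at 31.0 CPM at E16.5 (28.9 to 33.3), 30.5 CPM at E18.5 (26.1 to 35.5), 49.5 CPM at P1 (44.1 to 55.5) and 38.4 CPM at P5 (32.1 to 45.5). Its highest level from E14.5 to P5 was 2.21 times its lowest, the smallest range of the 7. The Sohlh1 level was below the Sohlh2 level at E14.5 and E16.5 and above it from E18.5, although UMI counts of different genes compare only roughly because capture differs between transcripts.

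Taf4b (ENSMUSG00000054321, chromosome 18) was highest at E16.5. Its level was 31.2 CPM in the 9 cells of E11.5 (12.53 to 64.2), 30.1 at E12.5 (26.2 to 34.3), 52.9 CPM at E14.5 (50.6 to 55.3), 196.5 CPM at E16.5 (191 to 202), 78.25 CPM at E18.5 (71.0 to 86), 64.8 CPM at P1 (58.6 to 71.6) and 29.9 CPM at P5 (24.4 to 36.3). Without the E16.5 library, E18.5 held the highest level and the ratio of E18.5 to E14.5 was 1.48 (1.33 to 1.64), where the median gene rose 1.27-fold. Taf4b overlaps a processed pseudogene on the same strand, and reads of the pair may have been split or dropped in counting.

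**Figure D1:**
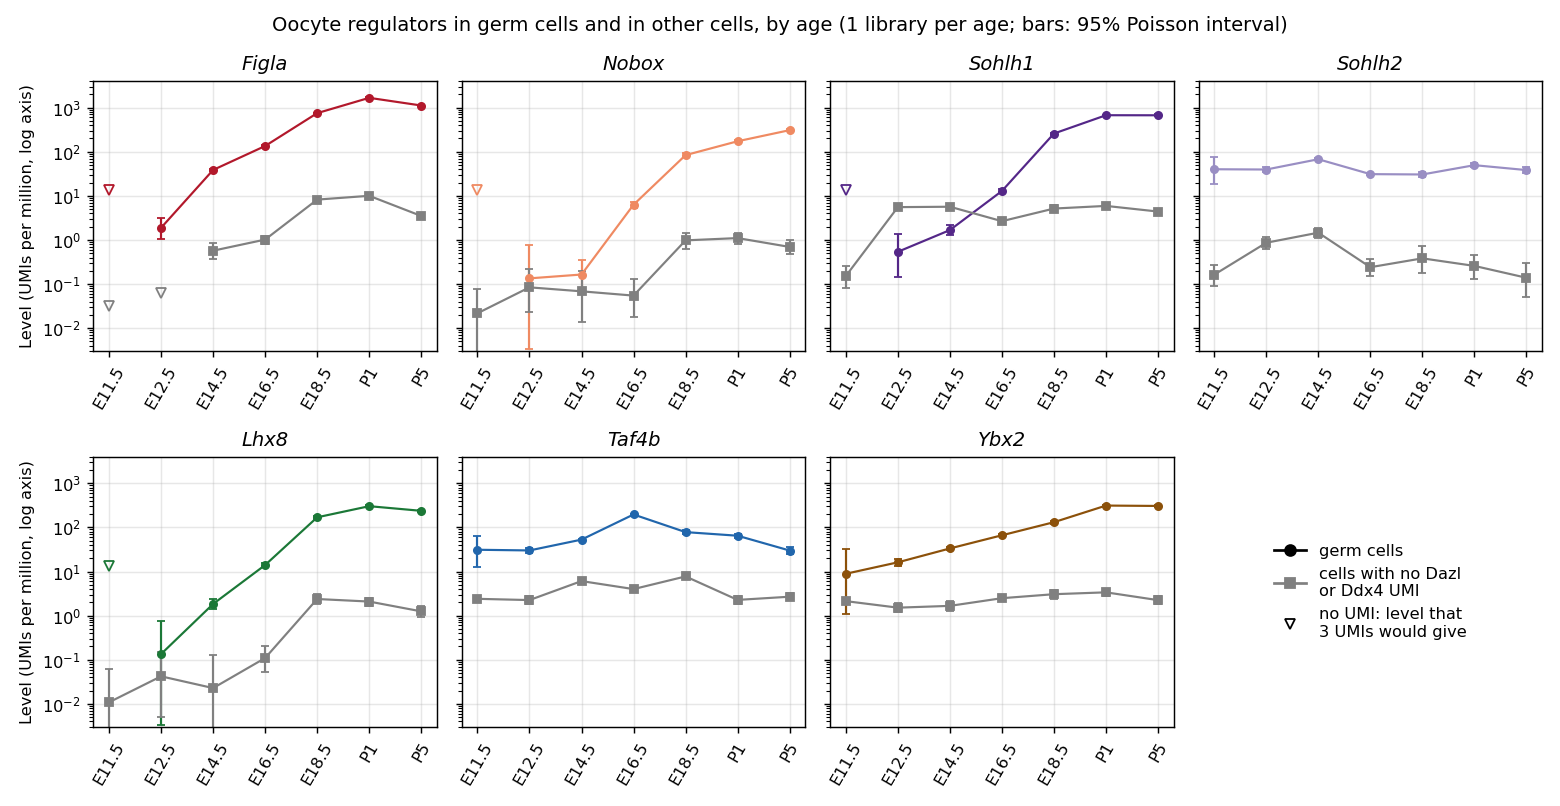
Level of each gene (CPM, log axis) in germ cells (coloured circles) and in cells with no Dazl or Ddx4 UMI (grey squares) at 7 ages, 1 library each, with exact 95% Poisson intervals and open triangles where no UMI was found. Figla, Nobox, Sohlh1 and Lhx8 climb steeply to P1, Sohlh2 stays between 30.5 and 67.5 CPM, and Taf4b peaks at 196.5 CPM at E16.5.

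The order of onset was read from a fixed rule, which took the first library in which the lower bound of the germ cell level was above 10 CPM and above 3 times the upper bound in the other cells. Sohlh2 and Taf4b met it at E11.5, Ybx2 at E12.5, Figla at E14.5, Sohlh1 and Lhx8 at E16.5 and Nobox at E18.5. The E11.5 calls rest on 9 cells, and with stricter germ cell rules Sohlh2 and Taf4b were first called at E12.5. The same 9 cells held 2 UMIs of Ybx2 (8.90 CPM, 1.08 to 32.2), an interval that held the 10 CPM line. The place of Ybx2 after Sohlh2 and Taf4b is therefore not settled. Sohlh1 and Lhx8 were first called at E18.5 when the E16.5 library was left out, so that their place before Nobox rests on that library. Their place also rests on the line of 10 CPM, since with a bound of 5 CPM Nobox too was called at E16.5. At E16.5 Nobox was at 115 times the level of other cells (48.1 to 358). Lhx8 was at 128 times (68.8 to 269) and Sohlh1 at 4.84 times (4.085 to 5.74). Figla at E14.5 came before Sohlh1, Lhx8 and Nobox under every alternative run.

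All 7 genes were germ-enriched once they had reached 10 CPM in germ cells. Among genes of at least 10 CPM in germ cells, a germ cell level at least 4 times that of other cells was reached by 4 of 4 of them at E14.5 (8.23% of 7197 genes), 6 of 6 at E16.5 (13.1% of 8255 genes), 7 of 7 at E18.5 (11.8% of 8042 genes), 7 of 7 at P1 (14.8% of 7647 genes) and 7 of 7 at P5 (17.4% of 7884 genes). At P5 the ratio ran from 11.1 for Taf4b (8.46 to 14.7) to 443 for Nobox (309 to 660.2), so the genes were not enriched alike. Genes under 10 CPM entered only once they had risen in germ cells, and these counts are therefore a description. At E16.5 Sohlh1 was at 4.84 times the level of other cells, and 21 germ cells described below carried most of its UMIs. The remaining 995 germ cells were at 3.85 CPM (3.11 to 4.70), under the 10 CPM line, against 2.66 CPM in other cells (2.34 to 3.02).

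Between neighbouring ages, changes of at least 2-fold were counted over the genes at 10 CPM or more in either age. From E14.5 to E16.5, 4 of the 6 that reached 10 CPM rose (Figla 3.49-fold, Sohlh1 7.70-fold, Lhx8 7.63-fold, Taf4b 3.71-fold) beside 37.4% of 8900 genes, where Sohlh1 and Lhx8 were under 10 CPM at E14.5 and entered through their E16.5 level. At E16.5, 21 cells described below held 231 of the 326 Sohlh1 UMIs. Of the 6 genes, 1 fell (Sohlh2, to 0.460 of its level, 0.424 to 0.498) beside 13.3%. The direction of Sohlh2 was against that of the median gene. From E16.5 to E18.5, 4 of 7 rose (Figla 5.55-fold, Nobox 13.3-fold, Sohlh1 20.0-fold, Lhx8 12.1-fold) beside 10.3% of 8840 genes, where Nobox entered through its E18.5 level. Taf4b fell to 0.398 of its level (0.360 to 0.440) beside 17.6%. Sohlh2 had a ratio of 0.983 over this step (0.827 to 1.16).

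From E18.5 to P1, 4 of 7 rose (Figla 2.22-fold, Nobox 2.06-fold, Sohlh1 2.60-fold, Ybx2 2.38-fold) beside 9.63% of 8585 genes, and none fell, beside 11.4%. Lhx8, with a ratio of 1.79 (1.65 to 1.94), lay under the 2-fold line. From P1 to P5 none of the 7 rose 2-fold, beside 11.8% of 8465 genes, and Taf4b alone fell 2-fold, to 0.462 of its level (0.368 to 0.575), beside 8.35%. Rises of at least 2-fold were thus counted only in the steps to P1. With 7 genes, a count of none from P1 to P5 lies near the share of all genes. Nobox still rose 1.785-fold in that step (1.64 to 1.95).

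Over the whole interval from E14.5 to P1, 5 of 7 rose at least 2-fold beside 24.0% of 8412 genes. The ratios were 1048 for Nobox (480 to 2862), 401 for Sohlh1 (312 to 525), 165 for Lhx8, 43.1 for Figla and 9.37 for Ybx2 (8.72 to 10.1). Nobox, Sohlh1 and Lhx8 were under 10 CPM at E14.5 and entered through their P1 level, so no other change was open to them. With the level of other cells subtracted, the Nobox ratio was 1783 and Sohlh1 had no level left at E14.5. Taf4b had a ratio of 1.225 (1.10 to 1.37), which became 0.992 after division by that of the median gene (1.235), and Sohlh2 had a ratio of 0.733 (0.649 to 0.827). From E14.5 to E18.5, without E16.5, the ratios were 508 for Nobox, 154 for Sohlh1, 92.1 for Lhx8, 19.4 for Figla and 3.94 for Ybx2.

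The E14.5 germ cells spanned the entry into meiosis, and they were divided into 4 groups of nearly equal size by the share of meiotic genes (such as Sycp1, Sycp3 and Spo11) among meiotic plus premeiotic marker UMIs (such as Pou5f1 and Utf1). None of the 7 genes was in this score. Figla was at 5.41 CPM in group 1, the least meiotic (4.17 to 6.91), 11.6 in group 2 (9.55 to 13.9), 43.1 in group 3 (38.7 to 47.9) and 132 in group 4, the most meiotic (124 to 141). Taf4b followed the same order with 34.7, 43.3, 56.1 and 96.4 CPM, and Ybx2 with 26.2, 28.0, 39.5 and 47.3 CPM. Figla thus spanned a far wider range than Taf4b or Ybx2 within 1 library.

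Sohlh2 was highest in group 3, at 81.7 CPM (75.6 to 88.2), and was at 59.05, 69.1 and 64.2 CPM in groups 1, 2 and 4. Lhx8 was at 1.10 CPM in group 1 (0.586 to 1.88) and 3.45 in group 4 (2.19 to 5.18). Sohlh1 (0.761 to 2.73 CPM) and Nobox (0 to 0.248 CPM) were too sparse for an order to be read. Median depth fell across the groups from 17189 to 10221 UMIs while the somatic marker level lay between 159 and 178 CPM, and 392 of the 2627 scored cells were near a boundary. When E14.5 germ cells were divided by depth alone into 3 groups, Figla was at 73.6 CPM in the shallowest and 17.99 CPM in the deepest. The part of depth in the order was not tested.

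**Figure D2:**
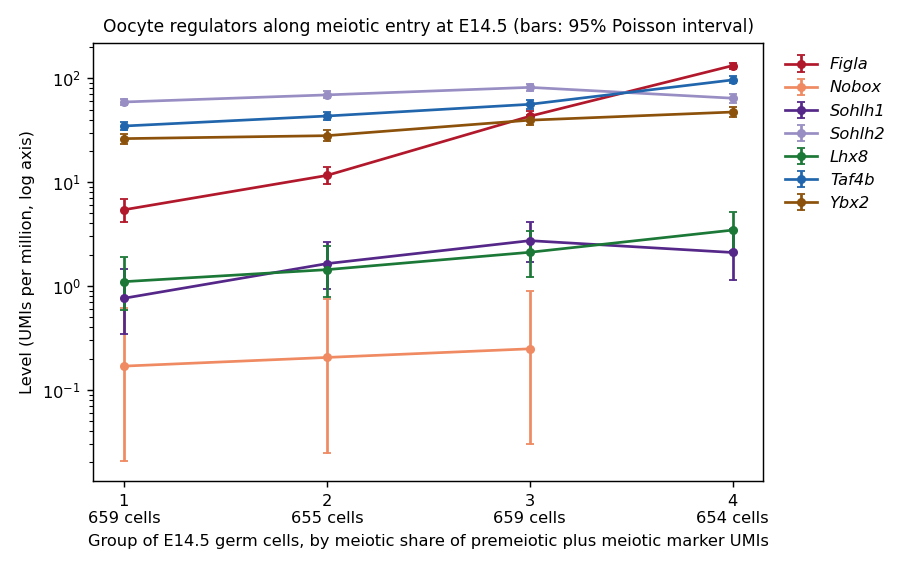
Level (CPM, log axis) of the 7 genes in 4 groups of E14.5 germ cells ordered from least to most meiotic, with exact 95% Poisson intervals. Figla climbs from 5.41 to 132 CPM while Sohlh2 stays between 59.05 and 81.7 CPM, and no Nobox UMI was found in group 4.

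At E16.5, Sohlh1 UMIs were concentrated in few cells. Of 1016 germ cells 933 had none, and 21 cells with at least 5 UMIs each held 231 of the 326 Sohlh1 UMIs. These 21 cells were singled out after the values had been seen, so the levels below are a description. Figla was at 735 CPM in them (668 to 808) and 120.5 in the other 995 germ cells (116 to 125), Nobox at 110.1 (85.0 to 140.4) and 3.81 (3.08 to 4.66), and Lhx8 at 168 (136 to 204) and 10.4 (9.13 to 11.7). Ybx2 was at 229 CPM (192 to 271) against 62.5 (59.4 to 65.7). The 21 cells were thus near the E18.5 levels of Figla, Nobox and Lhx8, but above the E18.5 level of Ybx2 (131 CPM, 122 to 141). Sohlh2 was at 47.4 CPM (31.5 to 68.6) in them and 30.65 CPM (28.5 to 32.9) in the others, with overlapping intervals.

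The same cells held more Kit, which encodes the receptor of the oocyte for Kit ligand, at 215 CPM (179 to 256) against 20.9 (19.1 to 22.7). They had 1 UMI of Stra8, a gene of meiotic entry (1.69 CPM, 0.0429 to 9.44), against 43.8 CPM (41.2 to 46.5) in the others. Sycp1, another synaptonemal complex gene, was at 2563 CPM (2436 to 2696) and 2619 CPM (2599 to 2639), and Taf4b at 163 (132 to 199) and 197 (192 to 203). Meiob, a gene of meiotic recombination, was lower in the 21 cells, at 105 CPM (80.5 to 134.7) against 141 (136.5 to 146). The rise of the 4 genes in these cells was therefore not shared by Sycp1, Meiob or Taf4b. In the 21 cells Kit and Taf4b were above their E18.5 levels of 91.5 CPM (83.7 to 99.85) and 78.25 CPM (71.0 to 86). Median depth was 29330 UMIs against 25027, and the somatic marker level 374 against 384 CPM. Without these 21 cells, Sohlh1 and Lhx8 were first called at E18.5.

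**Figure D3:**
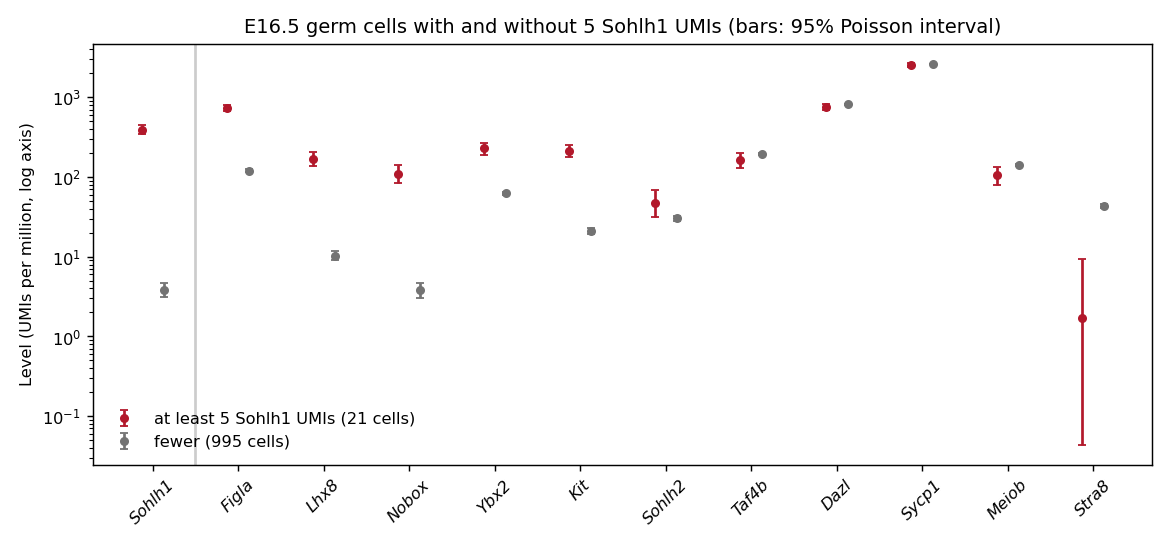
Level (CPM, log axis) in the 21 E16.5 germ cells with at least 5 Sohlh1 UMIs (red) and the other 995 (grey), with exact 95% Poisson intervals, where Sohlh1, left of the line, chose the cells. Figla, Lhx8, Nobox, Ybx2 and Kit are higher in the 21 cells, Stra8 and Meiob are lower, and Sycp1, Taf4b, Sohlh2 and Dazl have overlapping intervals.

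By E18.5 the Sohlh1 UMIs had spread over many cells. At least 1 was found in 246 of 439 germ cells of the E18.5 library, 221 of 244 at P1 and 60 of 62 in the P5 library. The 5% of germ cells with the most UMIs held 90.2% of its UMIs at E16.5, and then 28.2%, 19.9% and 14.3% over the next 3 libraries. Nobox ran from 84.3% at E16.5 to 36.2% at E18.5 and 19.8% at P1. Taf4b, with 16.7% at E16.5, had the lowest share of the 7 at that age and also the most UMIs (4968). Such a share depends on how many UMIs a gene has per cell, which rose with age for Sohlh1 and Nobox. The part of this in the shares was not tested.

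Later germ cells were ordered by the share of oocyte genes (such as Zp3, Gdf9 and Ooep) among oocyte plus meiotic prophase UMIs, again without the 7 genes. In 4 groups of P1 germ cells, from lowest to highest oocyte share, Ybx2 was at 175 CPM (147 to 208), 231 (207 to 257), 371 (342 to 401) and 378 (353 to 405). Sohlh1 was at 397, 667, 737 and 736 CPM in the same order, while Taf4b was at 107 CPM in group 1 (84.8 to 133) and 58.1, 64.0 and 56.4 in the others. Figla was highest in the middle groups, at 1469, 1944, 1898.5 and 1408 CPM. Median depth rose over these groups from 12714 to 39948.5 UMIs and the somatic marker level fell from 377 to 125 CPM. The P1 germ cells were also divided by depth alone into 3 groups. From the shallowest to the deepest, Ybx2 was at 168, 260 and 359 CPM and Sohlh1 at 423, 563 and 759 CPM. Figla was at 1279, 1792 and 1662 CPM and Taf4b at 74.2, 73.95 and 59.2 CPM. The part of depth and of the somatic marker level in the order was not tested.

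Nobox was at 117, 166, 211 and 172 CPM in the same 4 P1 groups, and at 108.5, 164 and 186 CPM in the 3 P1 depth groups. At P5, in 4 groups of 15 or 16 cells, it was at 243 CPM (209 to 281), 178 CPM (145.5 to 216), 307.5 CPM (272 to 346) and 410.1 CPM (375 to 448), so the order was not steady at either age. Median depth in the P5 groups was 51102.5, 31959, 64139 and 83554 UMIs, and when P5 germ cells were divided by depth alone into 3 groups Nobox was at 199, 274 and 352 CPM from the shallowest to the deepest. The part of depth was not tested. Sohlh1 lay at 734 CPM in the group with the lowest oocyte share (673 to 798) and 608 CPM in that with the highest (565 to 654), and Taf4b at 28.2 and 25.4 CPM (17.5 to 43.1 and 17.2 to 36.0). At E18.5 most oocyte UMIs came from Ooep. Germ cells held 194 UMIs of Ooep, 27 of Nlrp5, 25 of Zp2, 9 of Gdf9, 5 of Zp3, 4 of Padi6 and 2 of Zp1. Ooep was already at 32.6 CPM in germ cells at E12.5. Of 436 scored germ cells at E18.5, 293 had no oocyte UMI. Nobox was at 52.0 CPM in them (44.5 to 60.45) and 138 CPM in the 109 cells with the highest oocyte share (120.5 to 157.5). Figla (587 and 1057 CPM), Sohlh1 (196 and 365.5 CPM), Lhx8 (137 and 238 CPM) and Ybx2 (110.2 and 182 CPM) were also higher in these 109 cells, whose median depth was 13955 UMIs against 10876. Near a boundary were 380 of the 436 scored cells at E18.5, 108 of 238 at P1 and 29 of 62 at P5. By depth alone at E18.5, Nobox was at 59.1 CPM in the shallowest of 3 groups and 108 CPM in the deepest. Lhx8 was at 125 and 208 CPM and Ybx2 at 97.1 and 159 CPM. The part of depth at E18.5 was not tested.

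At 2000 UMIs per cell, at least 4 of the 7 genes were rarely found together before E18.5. At full depth, 42.0% of E16.5 germ cells already held at least 4. Each germ cell was thinned at random to 2000 UMIs, with 77, 47, 6, 11 and 0 shallower cells left out from E14.5 to P5. At least 4 of the 7 genes were then found in 3 of 2592 germ cells at E14.5 (0.116%, 0.0239 to 0.338%), 4 of 969 cells at E16.5 (0.413%, 0.113 to 1.05%), 50 of 433 cells at E18.5 (11.55%, 8.69 to 14.9%), 59 of 233 cells at P1 (25.3%, 19.9 to 31.4%) and 16 of 62 cells at P5 (25.8%, 15.5 to 38.5%). The intervals of E16.5, E18.5 and P1 did not overlap one another, whereas those of P1 and P5 did. In other cells thinned alike the count was 0 at every age, which at P1, with 4784 cells, left an upper bound of 0.0771%.

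At full depth the shares from E14.5 to P5 were 5.77%, 42.0%, 58.8%, 83.2% and 93.55%. All 7 genes were found at full depth in none of the E14.5 germ cells, and then, in order of age, in 18, 30, 100 (41.0%) and 38 (61.3%) cells of the later libraries. The thinned share of germ cells with none of the 7 fell with age, from 66.3% to 42.0%, 26.1%, 3.43% and 1.61% over these 5 libraries.

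**Figure D4:**
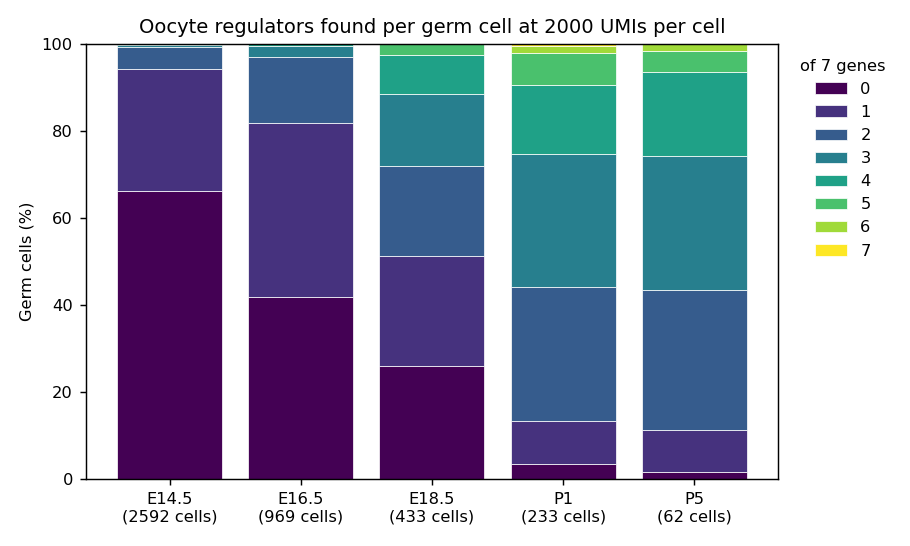
Share of germ cells (%) by the number of the 7 genes found in the cell at 2000 UMIs per cell, from E14.5 to P5, 1 library each. The share with none falls from 66.3% to 1.61%, and cells with 4 or more make up 25.3% at P1 and 25.8% at P5.

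For each of the 21 pairs, the share of thinned germ cells with both genes was set beside the product of the single shares. At E14.5 the interval of 1 pair lay above the product, Figla with Taf4b, found together in 45 cells (1.74%, 1.27 to 2.32%, against 0.899%). At E16.5, 4 pairs lay above, among them Figla with Sohlh1 (1.44%, 0.792 to 2.41%, against 0.593%). Sohlh1 with Taf4b lay below, found together in only 2 cells (0.206%, 0.0250 to 0.744%, against 0.867%). The pairs of Sohlh1 above the product at E16.5 were those with Figla, Nobox and Lhx8, in 14, 4 and 4 cells. Sohlh1 with Ybx2 was found in 7 cells (0.722%, 0.291 to 1.48%), an interval that held the product of 0.341%.

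At E18.5, 8 pairs lay above, all among Figla, Nobox, Sohlh1, Lhx8 and Ybx2. Sohlh1 and Lhx8 were found together in 13.6% of cells (10.5 to 17.2%) against a product of 7.09%, and Figla and Sohlh1 in 26.6% (22.5 to 31.0%) against 17.8%. At P1 and P5 the interval held the product for each of the 21 pairs. At P1, for example, Sohlh1 and Lhx8 were found together in 32.6% (26.6 to 39.05%) against 27.4%. The intervals at P1 and P5 rest on 233 and 62 cells and are wide.

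Sohlh1 was also found outside the germ cells, and at E12.5 and E14.5 it was lower in germ cells than in other cells. In cells with no Dazl or Ddx4 UMI it was at 5.55 CPM at E12.5 (4.90 to 6.26) and 5.66 CPM at E14.5 (4.98 to 6.42), against 0.539 and 1.675 CPM in germ cells. These cells were divided by the fixed marker lists, a division made after the values had been seen. At E12.5 the level was 12.1 CPM in cells with pregranulosa markers (10.6 to 13.75), such as Foxl2 and Wnt4, of which 11.7% of 1573 had a Sohlh1 UMI. It was 0.404 CPM in cells with mesenchymal markers (0.148 to 0.880), such as Nr2f2 and Pdgfra, of which 0.207% of 1451 had one, with median depths of 12158 and 9191 UMIs.

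The same order was found at the next ages, with 7.29 CPM (6.32 to 8.36) against 0.667 (0.216 to 1.56) at E14.5 and 4.83 CPM (4.17 to 5.55) against 0.487 (0.266 to 0.817) at E16.5. At E18.5 Sohlh1 was at 7.09 CPM (5.55 to 8.93) against 3.23 (1.95 to 5.05). At P5 it was at 5.68 CPM (4.62 to 6.91) against 2.64 (1.89 to 3.58). At P1 the Sohlh1 levels were 6.43 and 4.89 CPM, with overlapping intervals, and Figla was at 10.1 and 9.92 CPM in the same cells. At E14.5 Taf4b too was higher in the pregranulosa-marker cells, at 7.65 CPM (6.65 to 8.75) against 2.001 (1.12 to 3.30), whereas Figla was at 0.505 and 0.400 CPM. Sohlh1 and Taf4b therefore differed between these groups at E14.5, an age when Figla did not differ beyond its intervals. Other groups were not all lower at E14.5. Taf4b was at 8.43 CPM (3.39 to 17.4) in cells with endothelial markers, and Sohlh1 at 6.70 CPM (4.72 to 9.24) in cells left unassigned by the markers. Between pregranulosa-marker and mesenchymal-marker cells, Taf4b had overlapping intervals at E12.5 (2.04 and 2.29 CPM) and E16.5 (3.545 and 3.41 CPM). At E18.5 these did not overlap (11.4 and 2.04 CPM).

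The choice of 3 UMIs of Dazl and Ddx4 set the edge of the germ cell group. The summed level of the 7 genes in cells with exactly 2 and exactly 3 such UMIs was 56.3 and 116 CPM at E14.5, 76.3 and 213 CPM at E16.5, 331 and 704 CPM at E18.5, 1439 and 1109.5 CPM at P1 and 1171 and 968 CPM at P5. The last pair of values came from 8 and 3 cells.

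Genes related to the 7 by role were taken from fixed lists. In the list of zona pellucida genes and other FIGLA or NOBOX targets and secreted factors (Zp1, Zp2, Zp3, Gdf9, Bmp15, Oosp1 and the receptor gene Kit), 4 genes reached 10 CPM at E18.5 or P1 and rose at least 2-fold between these ages (Zp2, Zp3, Gdf9 and Kit), beside 9.63% of all genes. Zp2, Zp3 and Gdf9 were under 10 CPM at E18.5 and entered through their P1 level, so that a rise was the only change open to them. From P1 to P5, 5 of 6 rose beside 11.8% of all genes, and Zp1 and Oosp1 entered in the same way. Zp3, which encodes a zona pellucida protein, was at 0.439, 0, 0.908, 97.9 and 1172 CPM from E14.5 to P5. Gdf9, a growth factor of the oocyte, was at 1.63 CPM at E18.5, 41.0 CPM at P1 and 479 CPM at P5, and Oosp1 was found first at P5 with 26.2 CPM apart from 1 UMI at E14.5. Zp3 rose 107.9-fold from E18.5 to P1 (46.0 to 333) and 11.97-fold from P1 to P5 (11.0 to 13.1). Kit had risen 3.60-fold from E16.5 to E18.5 (3.20 to 4.06), beside 10.3% of all genes. It then rose 2.91-fold to P1 (2.63 to 3.22) and had a ratio of 0.667 from P1 to P5 (0.606 to 0.732).

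The list of the subcortical maternal complex, a protein assembly of the egg, rose in the same steps. From E18.5 to P1, 4 genes reached 10 CPM and rose (Nlrp5, Ooep, Padi6 and Tle6), beside 9.63% of all genes, and from P1 to P5 these and Khdc3 rose, beside 11.8%. Nlrp5 and Padi6 in the first of these steps and Khdc3 in the second entered only through the later age. Ooep and Tle6 were over 10 CPM at E18.5, and each rose 4.47-fold to P1 and then 19.8-fold and 3.35-fold. They had also risen from E16.5 to E18.5, 6.27-fold and 4.08-fold, beside 10.3% of all genes. Tle6 was already at 13.8 CPM at E16.5. Ooep was at 32.6 CPM at E12.5, 15.3 CPM at E14.5 and 5.615 CPM at E16.5, so it did not rise at every age. Padi6 was at 0.726 CPM at E18.5, 87.2 CPM at P1 and 1530.5 CPM at P5, and Ooep at 35.2, 157.5 and 3117 CPM.

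In the list of other TFIID genes (Tbp, Taf1, Taf4, Taf7l and Taf9b), 4 of 5 rose at least 2-fold from E14.5 to E16.5 beside 37.4% of all genes, with a median log2 ratio (of CPM + 1) of 1.02 beside 0.57 for all genes. Tbp (2.03-fold) and Taf1 (2.05-fold) were close to the 2-fold line, and Taf9b was under 10 CPM at E14.5. From E14.5 to E18.5, without the E16.5 library, Taf7l (4.76-fold) and Taf9b (10.03-fold) rose, and the ratio was 1.83 for Tbp, 0.826 for Taf1 and 1.29 for Taf4. From P1 to P5, 2 of 5 fell (Taf7l and Taf9b) beside 8.35% of all genes, with a median log2 ratio of -0.85. Taf7l, which encodes a germline TAF7 paralogue, was at 137, 694, 652, 602 and 10.2 CPM over the 5 libraries. Taf4, the close relative of Taf4b, was between 7.85 and 15.9 CPM. Taf7l thus stayed between 602 and 694 CPM from E16.5 to P1, whereas Taf4b fell from E16.5 to E18.5. Without the E16.5 library, both were higher at E18.5 than at E14.5, Taf4b 1.48-fold (1.33 to 1.64).

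A list of RNA regulators was set beside Ybx2. Of 14 genes, 11 were tested from E14.5 to P1 and 5 rose at least 2-fold (Cpeb1, Elavl2, Ddx6, Lsm14b and Igf2bp2) beside 24.0% of all genes, with a median log2 ratio of 0.93 beside 0.30 for all genes. Cpeb1, which encodes a regulator of mRNA polyadenylation, was at 71.9, 152, 197, 210.1 and 265 CPM, and Lsm14b, a gene of ribonucleoprotein granules, at 38.7, 62.8, 92.6, 340.3 and 383 CPM. Zar1, a maternal-effect gene, was at 1.65 CPM at P1 and 160 at P5. Ybx1, the broadly expressed relative of Ybx2, was at 480.0 CPM at E14.5, 225 CPM at E16.5 and 573 CPM at P1, with no steady course.

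The last list held the genes Stat3, Tbpl2, Dynll1 and Sub1, which belong with several of the 7 to a set of oocyte factors. Stat3, encoding a signalling transcription factor, rose 2-fold or more from E14.5 to E16.5 and again from E18.5 to P1, at 15.2, 40.2, 59.2, 251 and 273.5 CPM from E14.5 to P5, while it was at 56.9 to 87.35 CPM in other cells. Tbpl2, which encodes the oocyte paralogue of TBP, had no UMI in germ cells through E18.5 and was at 2.96 CPM at P1 and 8.43 at P5. Dynll1, at 915.5 to 2226 CPM from E14.5 to P5, and Sub1, at 952 to 2108 CPM, did not change 2-fold in any step.

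**Figure D5:**
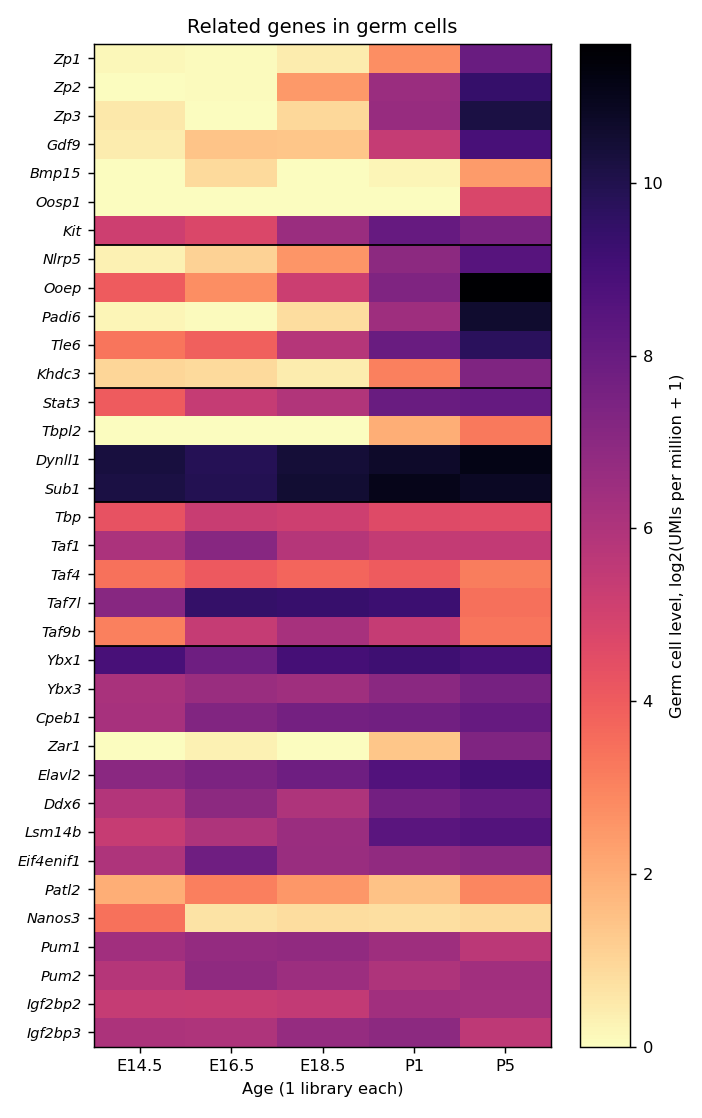
Germ cell level of the related genes from E14.5 to P5, as log2(CPM + 1), 1 library per age, with black lines between the fixed lists. The zona pellucida and maternal complex genes are darkest at P5, and Taf7l is dark from E16.5 to P1 and pale at P5.

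Likeness over the ages was taken as Pearson's r of log2(CPM + 10) over the 6 libraries from E12.5 to P5, among 1939 germ-enriched genes, as a description of points that share library and depth. Among the 7, Sohlh1 and Lhx8 were most alike (r = 0.995) and Nobox and Sohlh1 next (r = 0.991), whereas Sohlh1 and Sohlh2 had an r of -0.218. The 3 genes most like Sohlh1 were Add2, Mbl2 and Cd55 (r = 0.999, 0.997 and 0.993), and the same 3 were most like Lhx8. Those most like Taf4b were Mtmr1, Wdr44 and Chuk (r = 0.999, 0.997 and 0.994), with Mtmr1 at 9.499 CPM at E14.5, 40.7 CPM at E16.5 and 15.6 CPM at E18.5. Each was highest at E16.5, and the likeness was not computed without that library.

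Apbb1, Mageb4 and Cetn2 were most like Figla (r = 0.991, 0.988 and 0.985), D930020B18Rik, Gm15298 and Sult1c1 most like Nobox (r = 0.996, 0.996 and 0.994), and Jag2, Zswim7 and Ccdc115 most like Ybx2 (r = 0.998, 0.996 and 0.996). Jag2, which encodes a Notch ligand, rose from 3.24 CPM at E12.5 to 23.0 CPM at E16.5 and 89.7 CPM at P1. Pxmp2, Thyn1 and Rassf7 were nearest to Sohlh2 (r = 0.963, 0.917 and 0.913), the weakest likeness of the 7. For Sohlh2, 2 genes had an r above 0.95, against 56 to 94 genes for each of the others.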

How the data were processed

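The authors describe cells loaded with 10x Genomics v2 chemistry, with no separate entry for E16.5, whose few shared barcodes are given above. Whether E16.5 differed in chemistry was not tested. Cells were pooled at each age. The authors made the deposited counts, whole UMIs per gene and called cell, with Cell Ranger 3.1.0 on mm10. Cells under 200 genes were left out (1719), doublets were kept, and cells with 1 or 2 Dazl and Ddx4 UMIs belonged to neither group. Levels are a gene's summed counts in a cell group divided by that group's total UMIs, per 1000000 (CPM), with an exact Poisson interval. Shares have exact binomial (Clopper-Pearson) intervals after thinning to 2000 UMIs (seed 1), and ratios exact conditional ones. The fold rule was also run on simulated counts with counting error alone, which cannot show how libraries differ.

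Named genes were the 7, the fixed lists, and for each of the 7 the 3 genes of highest r among those reaching 20 CPM in germ cells and 4 times the level of other cells. The genes and lists were chosen with earlier results of these data known. The haemoglobin, mitochondrial, somatic marker, depth, germ cell and onset thresholds were varied. Gene positions came from GENCODE vM21 (GRCm38, the build of mm10) and promoters from RefSeq (GRCm38.p6), which held 6 of the 7. Python 3.11.15, numpy 2.4.6, scipy 1.17.1, pandas 2.3.3 and matplotlib 3.10.9 were used. No exact p-value was computed, as each age is 1 library.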

Additional observations from a re-analysis of the deposited data

Results flagged for a closer look

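Cells with 1 or 2 Dazl and Ddx4 UMIs were kept out of the comparisons and still carried the 7 genes above the level of cells with none. Their summed level was 25.4 CPM at E14.5 (21.9 to 29.3, 1181 cells), 29.1 CPM at E16.5 (25.5 to 33.1, 980 cells), 111 CPM at E18.5 (99.7 to 124, 334 cells), 135 CPM at P1 (121 to 151, 289 cells) and 155 CPM at P5 (130 to 183, 97 cells). Cells with none were at 15.5, 10.6, 27.9, 25.03 and 14.9 CPM, and germ cells at 196, 462, 1500.3, 3239 and 2705.5 CPM.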

How the results depend on the processing

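The count of 5 genes rising 2-fold from E14.5 to P1 was 5 under 11 of 11 alternatives. With the libraries numbered 1 to 7 by age, the onset was kept in 82 of 98 cases. Nobox moved from library 5 (E18.5) to 4 (E16.5) with a bound of 5 CPM. With a bound of 20 CPM, Sohlh1 and Lhx8 moved from 4 to 5, Sohlh2 and Taf4b from 1 (E11.5) to 2 (E12.5) and Ybx2 from 2 to 3 (E14.5). Sohlh1 and Lhx8 also moved to 5 without the E16.5 library or its 21 cells (both chosen after seeing the data), and Sohlh1 with the level of other cells subtracted. Sohlh2 and Taf4b moved to 2 with at least 10 Dazl and Ddx4 UMIs or 3 per 10000, and Taf4b with at least 5.

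The share of germ cells with at least 4 genes followed depth by construction, at 0, 0.0997, 1.83, 9.21 and 4.84% from E14.5 to P5 when thinned to 1000 UMIs, 3.80, 34.2, 76.0 and 83.05% from E16.5 when thinned to 5000, and 5.77, 42.0, 58.8, 83.2 and 93.55% unthinned. Levels of at least 5 CPM were also taken with other germ cell rules, cell filters, equal weighting, subtraction and no shared barcodes. None moved over 1.5 times, with ratios to the value reported from 0.793 to 1.30. Leaving out the 21 E16.5 cells was not among these changes, and it moved Sohlh1 and Nobox at E16.5 over 1.5 times. Sohlh1 was then at 3.85 CPM rather than 12.9 CPM, and Nobox at 3.81 CPM rather than 6.29 CPM. Lhx8 (10.4 against 14.04 CPM), Figla (120.5 against 135 CPM), Ybx2, Sohlh2 and Taf4b moved less. No paired analysis was possible because each age has 1 library. The number of germ cells limits the E11.5 values (9 cells) and those of P5 (62 cells).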
